A study of Mus musculus with 6 samples.

Results

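The neuronal nicotinic acetylcholine receptor subunits are the proteins that assemble, in groups around a central pore, into the cation channels that acetylcholine opens on neurons. They were chosen by gene symbol, as Chrna2, Chrna3, Chrna4, Chrna5, Chrna6 and Chrna7 for the alpha subunits and Chrnb2, Chrnb3 and Chrnb4 for the beta subunits. These are 9 of the 35485 genes in the tables, and all 9 were among the 13670 genes abundant enough to be tested. RNA of the whole retina was sequenced from wild type male C57BL/6 mice, 12 weeks old at surgery, 2 days after the optic nerve had been crushed with forceps for 10 seconds at 2 mm behind the eye (ONC) or exposed without a crush (sham). Each group had 3 samples, and RNA from 6 retinas of different mice was pooled in each. The crush damages the axons of retinal ganglion cells (RGCs), the output neurons of the retina, which are a small part of its cells. The comparison asked how the transcripts of the receptor subunits stood in the retina early after that injury.

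Nicotinic receptors are built from alpha subunits, which carry most of the acetylcholine binding site, and beta subunits, which complete it, while Chrna5 and Chrnb3 encode accessory subunits that join receptors whose binding sites are made by others. Chrna7 encodes a subunit that can form a channel by itself. In the retina, acetylcholine comes from starburst amacrine cells, and receptors with the Chrna6 and Chrnb3 products are known from RGCs and their terminals in the brain, while the Chrnb2 product is needed for the cholinergic waves of the developing retina.

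After ONC, Chrna6 and Chrnb3, the most abundant subunit transcripts of the sham retina, fell to 44.7% and 52.8% of their sham level in RPKM, a count of exon reads scaled by exon length and by all reads on genes. In edgeR's test Chrna6 had the smallest p-value of all 13670 genes tested and Chrnb3 ranked 7. By log2 fold change in the same fit, from the lowest up, they ranked 60 and 100. None of the other 7 subunits was called in either direction, and their summed RPKM was 25.4 ± 1.88 (SD, n = 3) in sham and 24.9 ± 1.88 (SD, n = 3) in ONC. This sum is on the scale of RPKM, on which the median log2 fold change of all tested genes was 0.13, against 0.01 on the scale of the test. A gene was called when edgeR's quasi-likelihood test of its exon reads, after Benjamini-Hochberg adjustment, gave p under 0.1 and the fold change passed 1.5 in either direction.

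By that rule 2 of the 9 members were lower in ONC, beside 0.834% of all tested genes, and 0 were higher, beside 0.827% of all tested genes. DESeq2's Wald test and limma on log2 RPKM also called 0 members higher. At an unadjusted p under 0.05 in edgeR's test, 4 members differed, beside 2286 of the 13670 genes tested. They were Chrna6, Chrnb3 and Chrnb2 on the lower side and Chrna3 on the higher side. With the adjusted p alone and no fold change threshold, 3 members were lower, beside 3.72% of all tested genes. In RPKM 2 members had all ONC values below all sham values, beside 3.45% of all tested genes, 1 had them above, beside 25.4%, and 6 overlapped. The median log2 fold change was -0.28 over the 9 members and 0.01 over all tested genes.

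The sham samples had 17343945 to 18349331 exon reads and the ONC samples 20019818 to 20358008. Exon reads made up 70.9% to 76.6% of the reads on genes in sham and 78.5% to 80.4% in ONC. The divisor of RPKM includes intron reads, so the exon share bears on its scale. Fold changes here are on the scale of exon reads normalised by TMM (trimmed mean of M-values), on which the median log2 fold change of all tested genes was 0.01. The coefficient of biological variation between samples of a group was 9.17%. As markers of the labelled tissue, 11 of 11 photoreceptor genes were tested, with a summed RPKM of 19918 to 20762 in sham and 21935 to 23338 in ONC.

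The subunit genes lie on 6 chromosomes, in positions that the tables give and that match the mouse build GRCm38. Chrna6 (chromosome 8, 27403212 to 27413944, minus strand, 6 exons) and Chrnb3 (chromosome 8, 27368711 to 27399730, plus strand, 6 exons) are neighbours, 3481 bases apart. Chrna5 (chromosome 9, 54980880 to 55007779, plus strand, 6 exons), Chrna3 (chromosome 9, 55011343 to 55026559, minus strand, 6 exons) and Chrnb4 (chromosome 9, 55028156 to 55048544, minus strand, 6 exons) form a second group, with gaps of 3563 and 1596 bases. The other 4 stand alone, as Chrna4 on chromosome 2 from 181022311 to 181039177, Chrnb2 on chromosome 3 from 89753448 to 89764632, Chrna7 on chromosome 7 from 63098692 to 63212526 and Chrna2 on chromosome 14 from 66140960 to 66152948.

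Promoter windows from RefSeq (GRCm38.p6, 250 bases before to 50 bases after the start of transcription) were matched for 6 of the 9 members, and there was no entry for Chrna2, Chrna6 and Chrnb3. The windows of Chrna3 (chr9:55026513-55026812, minus strand) and Chrnb4 (chr9:55048495-55048794, minus strand) are shown because these neighbours, read in the same direction, were the only members whose log2 fold change lay above 0. They are written 5′ to 3′ in the direction of the gene, and capitals mark the GC box (GGGCGG or its complement CCGCCC) and the E-box (CANNTG).
Chrna3: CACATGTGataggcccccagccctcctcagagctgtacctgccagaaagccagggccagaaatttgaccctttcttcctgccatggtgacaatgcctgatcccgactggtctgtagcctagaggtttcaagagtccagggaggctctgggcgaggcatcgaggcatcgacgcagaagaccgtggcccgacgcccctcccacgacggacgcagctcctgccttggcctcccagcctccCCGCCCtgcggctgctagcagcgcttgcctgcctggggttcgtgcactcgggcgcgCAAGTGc
Chrnb4: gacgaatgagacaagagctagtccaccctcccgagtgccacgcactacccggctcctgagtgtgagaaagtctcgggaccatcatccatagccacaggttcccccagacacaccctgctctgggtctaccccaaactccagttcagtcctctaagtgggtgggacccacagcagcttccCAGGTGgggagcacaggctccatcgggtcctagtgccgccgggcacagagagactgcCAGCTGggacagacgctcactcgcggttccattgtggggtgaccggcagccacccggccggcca
The Chrna3 window held 1 GC box and 3 E-box matches, of which the first and second overlap at the 5′ end, and the Chrnb4 window held no GC box and 2 E-box matches. Both strands were searched, and of 32851 promoter windows of the same length 35.7% held a GC box and 72.3% an E-box. The letters ATTAAT, a core of POU factor sites, were in 0 of the 7 windows found for members (Chrna5 has 2 starts) and in 4.75% of all windows.

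Chrna6, whose subunit contributes to the acetylcholine binding site of high-affinity receptors on axon terminals, had 2275, 2658 and 2509 exon reads in the sham samples and 1148, 1244 and 1148 in the ONC samples. In RPKM these were 34.1, 38.2 and 35.3 in sham and 15.6, 17.2 and 15.2 in ONC. Every ONC sample was far below every sham sample, and the groups did not overlap. The mean fell from 35.8 ± 2.12 to 16.0 ± 1.05 RPKM (SD, n = 3 each). The log2 fold change was -1.29 (SE 0.07), or 2.44-fold lower, with an adjusted p of 2.34e-09 in edgeR's quasi-likelihood test.

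Chrnb3, the accessory subunit that often joins receptors with the Chrna6 product, had 1881, 2141 and 2038 exon reads in sham and 1141, 1072 and 1198 in ONC. The RPKM values were 17.8, 19.5 and 18.1 in sham and 9.83, 9.39 and 10.1 in ONC. All 3 ONC samples were below all 3 sham samples, and the ONC samples lay within a narrow range. The mean went from 18.5 ± 0.874 to 9.76 ± 0.343 RPKM (SD, n = 3 each), with a log2 fold change of -1.04 (SE 0.07), 2.06-fold lower, and an adjusted p of 1.67e-08 (edgeR).

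The fall of Chrna6 was the larger one in RPKM. The ratio of Chrna6 to Chrnb3 was 1.91, 1.96 and 1.94 in the sham samples and 1.59, 1.83 and 1.51 in the ONC samples, so that the groups did not overlap. The ratio was 1.94 ± 0.0258 in sham and 1.64 ± 0.167 in ONC (SD, n = 3 each, exact two-sided permutation test, p = 0.1). With 3 samples against 3 this test cannot go below p = 0.1, which therefore holds for every permutation test given here.

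Some markers of RGCs were lower as well. Of 13 RGC marker genes, all tested, 6 were lower in ONC (Rbpms, Pou4f1, Pou4f2, Sncg, Nefh and Tubb3), beside 0.834% of all tested genes, and 0 higher. The paper had already reported Rbpms, Pou4f1, Pou4f2, Sncg and Nefh as lower in these samples. The median log2 fold change of the list was -0.53. Markers that were not called ran from -0.53 for Nefl to 0.26 for Slc17a6, with Thy1 at -0.22, Stmn2 at -0.09 and Isl1 at -0.02. With edgeR's adjusted p alone, 10 markers were lower, beside 3.72% of all tested genes, and 1 was higher, beside 325 of the 13670 genes tested. The summed RPKM of the list was 542 to 569 in the sham samples and 414 to 436 in the ONC samples, and no marker was listed at 0. Slc17a6, the glutamate transporter of RGC vesicles, had a log2 fold change of 0.26 (SE 0.07, adjusted p = 0.0525, edgeR). In RNA of the whole tissue, fewer cells of a type and less RNA per cell cannot be told apart, and the part of the RGC markers in the fall of Chrna6 and Chrnb3 was not tested.

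**Figure D1:**
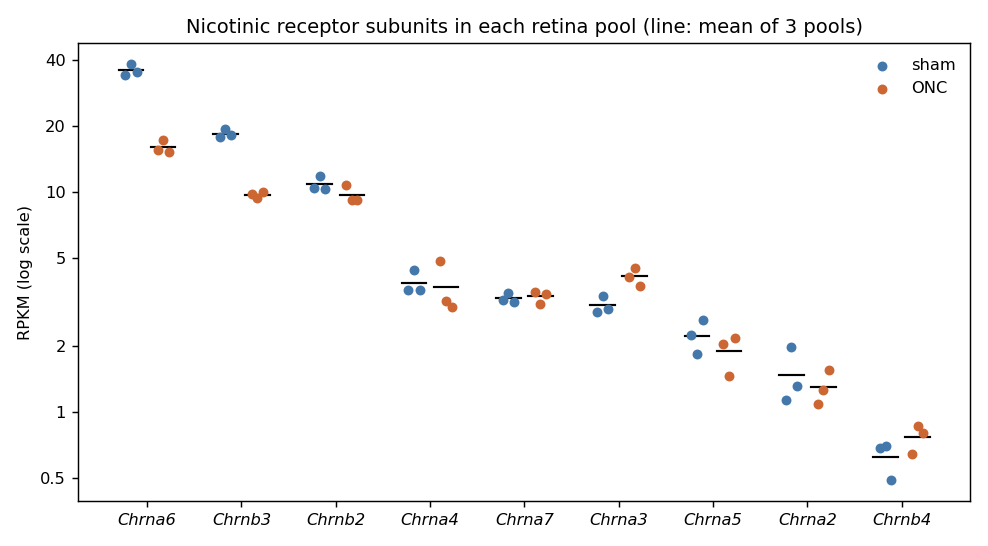
RPKM (vertical axis, log scale) of the 9 subunits in each retina pool, in order of their sham level, with sham in blue, ONC in orange and a line at the mean of 3 pools. Chrna6 falls from 35.8 to 16.0 and Chrnb3 from 18.5 to 9.76 with no overlap of the groups, Chrna3 has its 3 ONC pools above its 3 sham pools, and the groups of the other 6 subunits overlap.

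Chrnb2, the beta subunit that most neuronal receptors of high affinity contain, had 1289, 1522 and 1361 exon reads in sham and 1466, 1233 and 1287 in ONC. Its RPKM was 10.4, 11.8 and 10.3 in sham and 10.8, 9.20 and 9.22 in ONC. ONC replicates 2 and 3 were below all sham samples, and ONC replicate 1 lay within the sham range. It had a log2 fold change of -0.28 (SE 0.08), with an adjusted p of 0.0733 in edgeR's test, and did not reach the fold change threshold. It ran from -0.38 to -0.14 over 20 alternative settings and the adjusted p from 0.00122 to 0.571, so that the adjusted p stayed under 0.1 in only some of them.

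Chrna4, the alpha subunit that pairs with the Chrnb2 product in the most common receptor of the brain, had 367, 471 and 391 exon reads in sham and 545, 353 and 348 in ONC. In RPKM the values were 3.60, 4.43 and 3.60 in sham and 4.85, 3.20 and 3.02 in ONC. ONC replicate 1 was above all sham samples and the other ONC samples were below all of them. Its log2 fold change was -0.19 (SE 0.16, adjusted p = 0.594, edgeR). Without ONC replicate 1 it was -0.46 with an adjusted p of 0.0209, still short of the fold change threshold.

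Chrnb4 encodes the beta subunit that pairs with the Chrna3 product in autonomic ganglia and was the scarcest member, with 55, 59 and 42 exon reads in sham and 57, 75 and 73 in ONC. Its RPKM was 0.686, 0.706 and 0.492 in sham and 0.646, 0.865 and 0.807 in ONC, and the groups overlapped through ONC replicate 1. Its log2 fold change was 0.18 (SE 0.29, adjusted p = 0.804, edgeR).

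Chrna3, an alpha subunit of ganglionic receptors that is also made in the retina, had 206, 252 and 226 exon reads in sham and 327, 352 and 304 in ONC. The RPKM values were 2.87, 3.37 and 2.96 in sham and 4.14, 4.53 and 3.75 in ONC. Chrna3 was the only member with all ONC values above all sham values, a pattern that 25.4% of tested genes shared in RPKM, and it also had that order on the TMM scale. The mean was 3.06 ± 0.266 in sham and 4.14 ± 0.389 in ONC (SD, n = 3 each). Chrna3 had a log2 fold change of 0.31 (SE 0.13), with an unadjusted p of 0.0323 and an adjusted p of 0.242 (edgeR), and it ran from 0.24 to 0.43 over 20 alternatives without a call.

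Chrna5, the accessory alpha subunit beside Chrna3 in the genome, had 141, 120 and 176 exon reads in sham and 142, 100 and 155 in ONC. The RPKM was 2.24, 1.83 and 2.63 in sham and 2.05, 1.47 and 2.18 in ONC, and the groups overlapped. Its log2 fold change was -0.36 (SE 0.21, adjusted p = 0.421, edgeR). The 3 genes of the chromosome 9 group thus had log2 fold changes of -0.36, 0.31 and 0.18, none of them called.

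Chrna7, the subunit of receptors that take up much calcium and bind bungarotoxin, had 156, 174 and 163 exon reads in sham and 186, 162 and 187 in ONC. Its RPKM was 3.25, 3.47 and 3.19 in sham and 3.52, 3.11 and 3.45 in ONC, and both ranges nearly coincided. The log2 fold change of its exon reads was -0.10 (SE 0.16, adjusted p = 0.817, edgeR), and on the scale of RPKM it was 0.02.

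Chrna2, an alpha subunit found in few neurons of the brain, had 92, 167 and 114 exon reads in sham and 97, 111 and 143 in ONC. The RPKM was 1.14, 1.98 and 1.32 in sham and 1.09, 1.27 and 1.56 in ONC, so that the sham samples were spread more widely than the groups differed. Its log2 fold change was -0.30 (SE 0.23, adjusted p = 0.539, edgeR). For Chrna2, Chrna5 and Chrnb4, with SEs of 0.21 to 0.29 on the log2 scale, the error was close to the log2 fold change of -0.28 seen for Chrnb2.

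The order of the levels in sham, in RPKM, was Chrna6, Chrnb3, Chrnb2, Chrna4, Chrna7, Chrna3, Chrna5, Chrna2 and Chrnb4, and the ranges of neighbours in this order overlapped for Chrna7 with Chrna3 and for Chrna5 with Chrna2. In ONC the order began with Chrna6, Chrnb3 and Chrnb2, and Chrnb3 at 9.76 ± 0.343 and Chrnb2 at 9.73 ± 0.895 (SD, n = 3 each) were no longer apart. Chrna3, Chrna4 and Chrna7 followed, and the range of Chrna4 overlapped those of Chrna3 and Chrna7, which did not overlap each other, then came Chrna5 and Chrna2, which also overlapped, and Chrnb4. The ratio of Chrnb3 to Chrnb2 was 1.71 ± 0.0534 in sham and 1.01 ± 0.0900 in ONC, and that of Chrna6 to Chrna3 was 11.7 ± 0.326 in sham and 3.88 ± 0.158 in ONC (SD, n = 3 each, exact permutation test, p = 0.1 for each).

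The summed RPKM of the 9 subunits was 76.1, 85.2 and 77.9 in the sham samples and 52.5, 50.2 and 49.3 in the ONC samples, with no overlap. The mean sum was 79.7 ± 4.85 in sham and 50.7 ± 1.64 in ONC (SD, n = 3 each, exact permutation test, p = 0.1). The sum of the 7 members other than Chrna6 and Chrnb3 overlapped between the groups (exact permutation test, p = 0.5). RPKM gave higher ONC values than TMM did, so this overlap holds for the scale of RPKM. On the TMM scale Chrnb2, Chrna2, Chrna4, Chrna5 and Chrna7 had log2 fold changes below 0, and Chrna3 and Chrnb4 above 0.

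The makeup of the subunit transcripts was described by the share of each subunit in the sum of all 9. Chrna6 made up 44.8%, 44.8% and 45.3% of the summed RPKM in the sham samples and 29.7%, 34.2% and 30.9% in the ONC samples, a difference of -13.3 percentage points. Chrnb3 made up 23.4%, 22.8% and 23.3% in sham and 18.7%, 18.7% and 20.4% in ONC, a difference of -3.91 percentage points. Chrnb2 took 13.6% ± 0.306 of the sum in sham and 19.2% ± 1.16 in ONC, and Chrna3 took 3.84% ± 0.0977 and 8.17% ± 0.745 (SD, n = 3 each).

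Of the 9 shares, 2 were lower in all ONC samples than in all sham samples (Chrna6 and Chrnb3), 5 were higher in all of them (Chrnb2, Chrna3, Chrna4, Chrna7 and Chrnb4) and 2 overlapped (Chrna2 and Chrna5). The 7 shares without overlap had p = 0.1 in the exact permutation test, 0.129 after Benjamini-Hochberg adjustment over the 9 shares. The shares of a sample add up to 100, so they are not independent of each other, and a larger share does not by itself stand for more transcript.

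**Figure D2:**
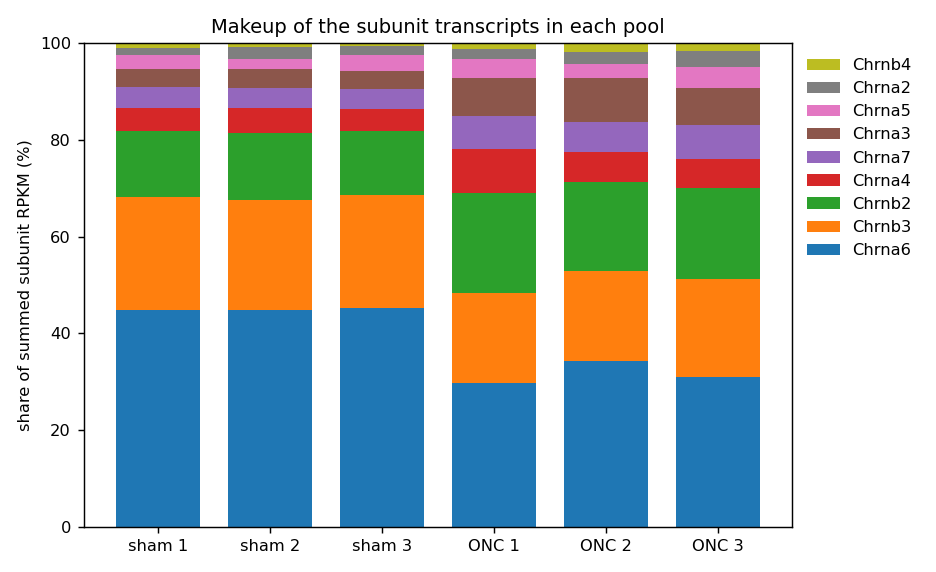
Share of each subunit in the summed RPKM of the 9 subunits (vertical axis, percent), stacked for each of the 3 sham and 3 ONC pools. Chrna6 at the base takes 44.8% to 45.3% of the sham bars and 29.7% to 34.2% of the ONC bars, and the shares of Chrnb2 and Chrna3 are larger in every ONC bar than in any sham bar.

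Reads that fell on a gene outside its exons (all reads on the gene minus its exon reads) were compared in the same way, as another readout of the same libraries. Chrna6 had 29, 16 and 39 intron reads in sham and 33, 26 and 31 in ONC, and Chrnb3 had 78, 103 and 105 in sham and 111, 100 and 70 in ONC. The groups overlapped for both genes. The log2 fold change of intron reads was 0.16 (SE 0.45, adjusted p = 0.893, edgeR) for Chrna6 and 0.05 (SE 0.28, adjusted p = 0.950) for Chrnb3, and both changed sign under some settings.

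The ratio of exon to intron reads set these readouts side by side. For Chrna6 it was 78.4, 166 and 64.3 in sham and 34.8, 47.8 and 37.0 in ONC, and for Chrnb3 it was 24.1, 20.8 and 19.4 in sham and 10.3, 10.7 and 17.1 in ONC. In both genes every ONC sample was below every sham sample (exact permutation test, p = 0.1 for each). Over all genes the ratio went the other way, with 3.15, 3.27 and 2.43 in sham and 3.97, 4.11 and 3.65 in ONC. The few intron reads of Chrna6, 16 in the sham sample with the highest ratio, leave its ratio known within wide limits.

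Chrna7 had the opposite pattern to Chrna6 and Chrnb3. Its intron reads were 120, 172 and 173 in sham and 65, 87 and 80 in ONC, with all ONC samples below all sham samples. By intron reads its log2 fold change was -0.96 (SE 0.23, adjusted p = 0.0708, edgeR), and Chrna7 was the only one of the 6 members tested by intron reads that was called lower, beside 2.26% of the 13317 genes tested. The call was lost in 5 of 6 fits that left out a sample, namely sham replicate 2, sham replicate 3 or any ONC replicate, with adjusted p of 0.101 to 0.318. Its ratio of exon to intron reads was 1.30, 1.01 and 0.942 in sham and 2.86, 1.86 and 2.34 in ONC, in the direction of the ratio over all genes.

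The other 3 members tested by intron reads were Chrna3 at a log2 fold change of 0.15 (SE 0.36), Chrna4 at 0.04 (SE 0.64) and Chrna5 at -0.68 (SE 0.69), none of them called. Chrna2, Chrnb2 and Chrnb4 had a mean of under 10 intron reads and were not tested. Reads across a splice junction, an alternative chosen after the data were seen, were 493, 556 and 551 for Chrna6 in sham and 220, 230 and 265 in ONC. Their log2 fold change was -1.37 (SE 0.12, adjusted p = 1.24e-07, edgeR) for Chrna6 and -1.19 (SE 0.16, adjusted p = 5.56e-05) for Chrnb3, and no other member was called by them.

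**Figure D3:**
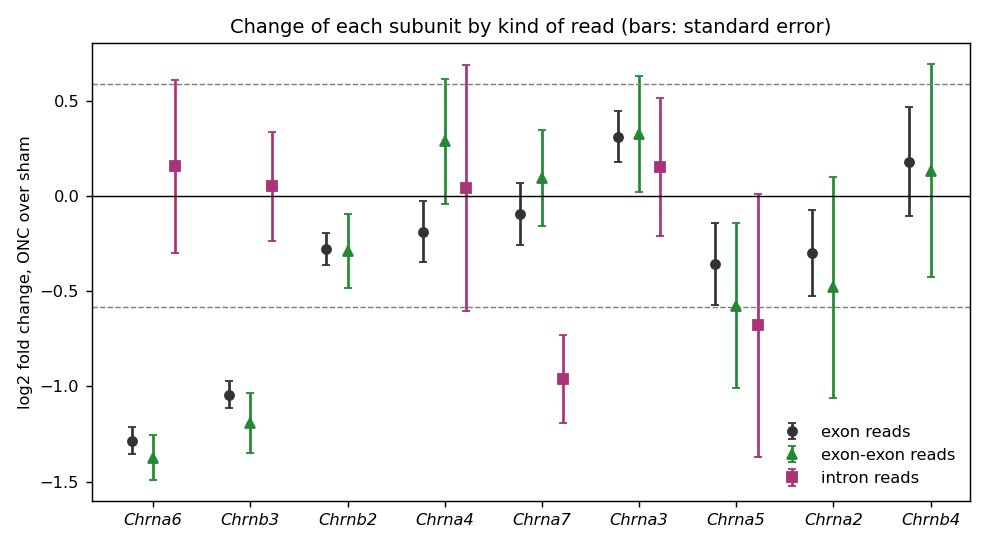
Log2 fold change of each subunit, ONC over sham, from exon reads (circles), reads across splice junctions (triangles) and intron reads (squares, 6 members), with bars of 1 standard error and dashed lines at a fold change of 1.5. For Chrna6 and Chrnb3 the exon and junction values lie below -1 and the intron values near 0, while for Chrna7 only the intron value, -0.96, lies below the dashed line.

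All exon reads of the 9 members were counted as unique in the tables. The genes next to the members were read as a check on shared reads. Beside Chrna4, Col20a1 had a log2 fold change of 0.24 (SE 0.12, adjusted p = 0.340, edgeR), and beside Chrna5, Psma4 had one of 0.01 (SE 0.07, adjusted p = 0.975). Neither was called. The flanks of the Chrna6 and Chrnb3 pair are Poteg and Tex24, which were too low to be tested, and Tex24 was listed at 0 in all samples. Chrnb2 overlaps Adar by 8 bases, and Adar had a log2 fold change of -0.07 (SE 0.07). As counted here, Chrna5 ends at 55007779, before Chrna3 begins at 55011343. In the RefSeq annotation Chrna5 ends at 55011420, past the start of Chrna3 at 55010117. Of that shared stretch only the part from 55011343 to 55011420 lies within a gene as counted, namely Chrna3. Without strand the reads of that part cannot be told apart.

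For each member the tested genes with the most similar pattern over the 6 samples were found among 11798 genes with a mean RPKM above 1, by the root mean square difference of log2 CPM (TMM-normalised counts scaled to library size) after centring. For Chrna6 they were Pvalb, the calcium buffer parvalbumin (difference 0.0965), Tppp3, a tubulin-binding protein (0.126), and Nefh, the heavy neurofilament chain (0.126). For Chrnb3 they were Nrgn, the calmodulin-binding neurogranin (0.0704), Sncg, gamma-synuclein (0.0766), and Syt2, a calcium sensor of synaptic vesicles (0.0902). These genes had log2 fold changes of -1.37, -1.48, -1.29, -1.03, -0.95 and -1.09 in that order, a direction that follows from how they were chosen.

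The genes nearest to the uncalled members were Mzt2 for Chrna3 (0.0466), Diap3 for Chrnb2 (0.00603), Rab3ip for Chrna7 (0.0171), Zfp408 for Chrnb4 (0.0395), Oaz3 for Chrna2 (0.0667), Srgap2 for Chrna4 (0.0744) and Zfp953 for Chrna5 (0.0857). None of these 7 genes was called, and the differences are a description over 6 samples.

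Among the proteins that assemble nicotinic receptors or bind them, 10 of 12 listed genes were tested. Of these, 2 were lower in ONC, beside 0.834% of all tested genes, and 0 higher. The median log2 fold change was -0.22. In edgeR's test 5 of the 10 had an unadjusted p under 0.05, beside 2286 of the 13670 genes tested. They were Lypd6, Vsnl1, Lynx1 and Lypd6b on the lower side and Unc50, at a log2 fold change of 0.20 (SE 0.09), on the higher side. Lypd6, a Ly6 protein that binds nicotinic receptors, had an RPKM of 6.76, 7.02 and 6.32 in sham and 5.07, 4.48 and 4.24 in ONC, with no overlap and a log2 fold change of -0.66 (SE 0.11, adjusted p = 0.000894, edgeR). Vsnl1, the calcium sensor visinin-like 1 that promotes surface transport of these receptors, had 51.2, 50.7 and 53.2 in sham and 34.2, 40.1 and 36.4 in ONC, also with no overlap.

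Vsnl1 had a log2 fold change of -0.61 (SE 0.07, adjusted p = 1.37e-05, edgeR). Lynx1, a membrane-anchored Ly6 protein that dampens nicotinic receptors, went from 41.8 ± 1.61 to 31.0 ± 2.32 RPKM (SD, n = 3 each), with a log2 fold change of -0.55 (SE 0.07, adjusted p = 3.47e-05) that was just short of the fold change threshold. Ric3 and Tmem35 (also named Tmem35a), chaperones needed above all for the Chrna7 product, had log2 fold changes of -0.04 (SE 0.06) and 0.02 (SE 0.09). The calls of Lypd6 and Vsnl1 were lost under the scaling of RPKM and in limma, where the list had 0 calls. Without sham replicate 3 the list had 1 call, Lypd6, and without ONC replicate 1 it had 2, Lypd6 and Lynx1.

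The genes that make, load, take up and break down acetylcholine were not called. Of 8 listed genes 6 were tested, and edgeR's test called 0 of them, as DESeq2 and limma did, with 0 at an unadjusted p under 0.05 and a median log2 fold change of -0.06. Chat, the enzyme that makes acetylcholine, had an RPKM of 3.62, 4.07 and 3.90 in sham and 5.58, 4.08 and 4.61 in ONC. All ONC values were above sham, an order that 25.4% of tested genes shared in RPKM, but ONC replicate 2 at 4.075 barely passed sham replicate 2 at 4.07. The log2 fold change of Chat was 0.18 (SE 0.15, adjusted p = 0.574, edgeR). Slc5a7, the choline transporter of cholinergic terminals, was at -0.08 (SE 0.11), and Ache, which breaks acetylcholine down, at -0.06 (SE 0.09).

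Of the starburst amacrine cell markers, which include Chat and Slc5a7, 7 of 8 were tested and 0 were called by edgeR, DESeq2 or limma. In edgeR 2 had an unadjusted p under 0.05, beside 2286 of the 13670 genes tested, and both were lower. Megf10 was at a log2 fold change of -0.35 (SE 0.11, adjusted p = 0.0823), with all ONC samples below all sham samples in RPKM. Slit2 was at -0.15 (SE 0.06, adjusted p = 0.242). Their summed RPKM was 30.1 to 31.3 in sham and 28.3 to 32.6 in ONC. Of the 9 microglia markers edgeR called 3 higher (Itgam, C1qa and C1qb, adjusted p = 0.0903, 0.0931 and 0.00632), beside 0.827% of all tested genes. DESeq2 called 2 of the 9 higher, and limma called 3 at each pseudocount. Of the markers that edgeR did not call, C1qc was at a log2 fold change of 0.57 (SE 0.18) and Aif1 at -0.32 (SE 0.64). The paper had already reported C1qa, C1qb and C1qc as higher in these samples. The summed RPKM of the 9 was 18.0 to 20.3 in sham and 29.7 to 32.9 in ONC, with no marker at 0. The part of these cells in the values of Chrna3 or of the other members was not tested.

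Receptors outside the neuronal nicotinic family were read from the same fit. Of the 7 nicotinic subunits of muscle and hair cells only Chrnb1 was tested, at 3.65 ± 0.241 RPKM in sham and 3.05 ± 0.418 in ONC (SD, n = 3 each), with a log2 fold change of -0.38 (SE 0.16, adjusted p = 0.238, edgeR) and an unadjusted p under 0.05. Chrnd, Chrng and Chrna9 were listed at 0 in all samples. Of the 5 muscarinic receptors, through which acetylcholine acts by G proteins, 4 were tested and 0 called by edgeR, DESeq2 or limma, with 0 at an unadjusted p under 0.05 and log2 fold changes from -0.31 for Chrm1 to -0.06 for Chrm2.

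**Figure D4:**
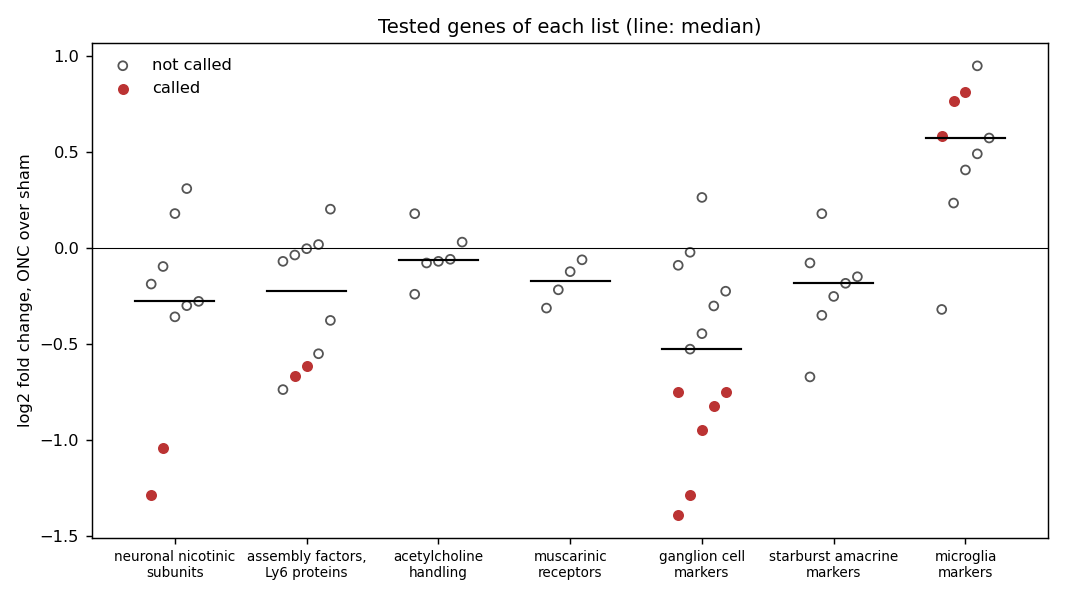
Log2 fold change, ONC over sham, of each tested gene in 7 lists (columns), with called genes filled and a line at the median of each list. Calls below 0 appear among the subunits, the assembly factors and Ly6 proteins and the RGC markers, calls above 0 among the microglia markers, and none in the acetylcholine handling, muscarinic or starburst lists.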

How the data were processed

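Total RNA was extracted and combined into 3 ONC and 3 sham pools of 6 retinas. The cDNA libraries made from these pools by a TruSeq kit of Illumina were sequenced as 100 bp read pairs. Groups and replicate numbers were read from the labels, where NC stands for a crushed sample. Mapping was done by the authors in CLC Genomics Workbench, and the authors deposited raw counts of reads per gene on exons, across exon junctions and on the whole gene, with an intact pair counted as 1. The authors also deposited RPKM, which is exon reads scaled by the exon length and by the sum of reads on genes (introns included), and which was recomputed from the deposited counts to within 0.0005. The submitters' notes and the paper name mm9, while the gene positions match GRCm38 in the RefSeq annotation. Strands were taken from GENCODE, and whether the counting used strand is not given in the sources used here. The authors' group means of RPKM were not used.

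The 13670 genes whose mean RPKM exceeded 0.3 in either group were tested on total exon reads with edgeR 4.0.16 in R 4.3.3 (TMM, glmQLFit and glmQLFTest, condition as the only term, Benjamini-Hochberg adjustment over all of them). Called genes had an adjusted p under 0.1 with a fold change over 1.5. These are the thresholds of the study, whose test on RPKM was replaced by the count test. The SE is the log2 fold change divided by the square root of F. Intron reads, the gene reads minus the exon reads, were tested in the same way where their mean was at least 10. Shares and ratios were compared by two-sided exact permutation tests. Alternatives were DESeq2 1.42.0, DESeq2 size factors, the scaling of RPKM, library sizes without TMM, limma 3.58.1 on log2(RPKM + 0.1), log2(RPKM + 1) and log2(RPKM + 0.01), other filters and thresholds, unique exon reads, all reads on a gene, a replicate block, leaving out each sample in turn and, chosen after the data were seen, reads across exon junctions. Other steps used Python 3.11.15, numpy 2.4.6, pandas 2.3.3, scipy 1.17.1 and matplotlib 3.10.9, and the fits were tested on simulated data.

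Named are all 9 members, the genes of the lists, genome neighbours (not all are reported here) and genes of nearest pattern, for which 3 were found for each member, all 3 named for Chrna6 and Chrnb3 and the nearest for the others. The members and lists were chosen with earlier results of these data known. Each sample pools different mice, and the p-values set the difference between groups against the spread between pools, not between single mice. Exon reads per sample ran from 17343945 to 20358008, and a member with under 100 exon reads in a sample, such as Chrnb4, is known less precisely than Chrna6.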

Additional observations from a re-analysis of the deposited data

How the results depend on the processing

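Chrna6 and Chrnb3 were lower in ONC and called under all 20 alternatives, at log2 fold changes of -1.37 to -1.11 and -1.19 to -0.86, and no other member was called in any of them. With no fold change threshold, 3 members passed, the third being Chrnb2. The scaling of RPKM moved the median log2 fold change of all genes from 0.01 to 0.13. Chrna7, uncalled, changed sign to 0.025 with that scaling, to 0.023, 0.019 and 0.024 with limma at pseudocounts of 0.1, 1 and 0.01, and to 0.092 with exon-exon reads, as Chrna4 did to 0.29 with exon-exon reads. The 2 calls among assembly factors and Ly6 proteins became 0 with the scaling of RPKM, limma at each pseudocount and total gene reads, and 1 with exon-exon reads, and ran from 1 to 3 without one sample, with 1 without sham replicate 3. For intron reads the call of Chrna7 ran from 0 to 1 over the fits without one sample, and its log2 fold change from -1.08 to -0.88. Intron values near 0 changed sign with the scaling of the exon reads to -0.11 for Chrna3, -0.25 for Chrna4, -0.12 for Chrna6 and -0.24 for Chrnb3, and without one sample they ran from -0.025 to 0.24, from -0.25 to 0.32, from -0.13 to 0.41 and from -0.21 to 0.30 in that order.

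Over all genes, 227 were called (114 lower, 113 higher), against 350 with the scaling of RPKM (87 lower, 263 higher), 342 with total gene reads (228 lower, 114 higher), 282 with limma at a pseudocount of 0.1 (65 lower, 217 higher), 149 with exon-exon reads, 833 with no fold change threshold, and 153 without sham replicate 2 to 353 without ONC replicate 1. By intron reads 365 were called, against 1288 with the scaling of the exon reads and 0 (without sham or ONC replicate 2) to 876 (without sham replicate 1). The 0 calls stood beside 2112 and 1352 genes at an unadjusted p under 0.05. The cause of these shifts was not tested. With the replicate block 222 genes were called and the 2 called members remained, Chrna6 at -1.29 and Chrnb3 at -1.04. Samples with the same number correlated at -0.05, -0.03 and 0.00 in their deviations, not best with their own number, so the pairing is one of number alone. Depth kept 3 members with a mean of under 10 intron reads out of the intron comparison.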

Other observations

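ONC replicate 1 differed from the other ONC samples in Chrna4, with 545 exon reads against 353 and 348, and with 104 reads across exon junctions against 44 and 48, where the sham samples had 46, 46 and 47. Its share of the subunit sum taken by Chrna4 was 9.25%, against 6.37% and 6.13% in the other ONC samples. The same sample had the highest RPKM of Chat and Chrnb2 among the ONC samples, at 5.58 and 10.8.

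Markers of the other retinal cell types had 0 calls by edgeR, DESeq2 or limma. Some passed edgeR's adjusted p but not the fold change threshold. Over all tested genes, 3.72% were lower and 325 of 13670 were higher with that adjusted p alone. An unadjusted p under 0.05 was found for 2286 of them. Lower were the amacrine marker Calb2 (log2 fold change -0.55, adjusted p = 2.62e-06) and the horizontal cell marker Calb1 (-0.23). Higher were the photoreceptor markers Sag (0.39, adjusted p = 2.14e-05), Nr2e3 (0.37, adjusted p = 0.00171) and Pde6b (0.18), and the horizontal cell marker Tpm3 (0.24). In edgeR's test the 11 amacrine cell markers beyond the starburst list had a median log2 fold change of -0.04 with 1 at an unadjusted p under 0.05, the 10 bipolar cell markers -0.04 with 1, the 7 Muller glia markers -0.01 with 1, the 11 photoreceptor markers 0.06 with 4, the 5 horizontal cell markers found -0.23 with 3, the 6 endothelial and mural cell markers -0.24 with 0, and the 6 pigment epithelium markers -0.01 with 0.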
